A study of Mus musculus with 6 samples.

Results

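Axon guidance genes were taken by symbol as the semaphorins of classes 3 to 7, the plexins, the ephrins and Eph receptors, the Slits and Robo receptors, the netrins and Unc5 receptors, the Slitrk family, and Dcc, Neo1, Rgma, Rgmb and Draxin. The symbols gave 76 of the 17794 genes in the table. Unc50 and Unc5cl matched by their letters alone and encode no netrin receptor, which leaves 74 guidance genes. The tissue was whole mouse cornea, and all 6 libraries came from animals with experimental dry eye induced by benzalkonium chloride (BAC), a detergent used as an eye drop preservative and toxic to the ocular surface. After the damage 1 group received vehicle and the other luteolin, a plant flavone, for 10 days, with 3 libraries in each group. Strain, age, luteolin dose and route were not stated, and undamaged corneas were not analysed here, so each value compares treated with vehicle-treated damaged tissue. Because no label ties a library to its own animal, the p-values cover only the spread among these samples, and that spread may be technical.

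Guidance cues are ligands that attract or repel a growing axon, and most of them also steer other cells. Semaphorins signal through plexins, the secreted class 3 members together with neuropilin co-receptors. Ephrins are membrane-bound ligands of the Eph receptor tyrosine kinases, and the pair signals where cells touch. Slits signal through Robo receptors, and netrins through Dcc, neogenin and the Unc5 receptors. The cornea is the most densely innervated surface tissue of the body, its nerve cell bodies lie in the trigeminal ganglion, and its epithelium, keratocytes and any invading vessels express guidance genes of their own.

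Library totals ran from 16084855 to 16469699 estimated counts, and libraries of 1 group correlated at 0.970 to 0.991 over log2 CPM (counts scaled to library size with TMM factors), against 0.901 to 0.919 between groups. These correlations are across genes, which are not independent replicates. The corneal epithelial keratin gene Krt12 stood between 12532 and 27436 CPM in every library. Of 9 listed sensory neuron and axon genes in the table only 2 had enough reads to test. Uchl1, the highest, was 3.94-fold lower with luteolin (1.43 to 4.27 against 0.193 to 0.903 CPM, adjusted p = 0.0259, a call that ended without luteolin 3), and Nefm did not pass. The summed CPM of the list was 3.69 to 7.42 with vehicle and 1.22 to 2.21 with luteolin, with Calca at 0 in 5 of 6 libraries, and its part in the guidance genes was not tested. Whole cornea is a mixture, so fewer cells of a type and less RNA per cell cannot be told apart.

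The promoters of 6 guidance genes are shown because the results turn on these genes: Efna1, Efna3 and Efna4 lie next to each other on chromosome 3 with no other gene of the table between them and all rose, Unc5c had the largest increase, and Robo4 and Plxnd1 are receptors of vessel endothelium that fell. Each sequence is the 250 bases before the annotated start, 5′ to 3′ in the direction of the gene, from RefSeq (GRCm38.p6, another build than the authors' mm9). Capitals mark the GC box, GGGCGG on either strand.
Efna1, chr3:89280952-89281201, minus strand: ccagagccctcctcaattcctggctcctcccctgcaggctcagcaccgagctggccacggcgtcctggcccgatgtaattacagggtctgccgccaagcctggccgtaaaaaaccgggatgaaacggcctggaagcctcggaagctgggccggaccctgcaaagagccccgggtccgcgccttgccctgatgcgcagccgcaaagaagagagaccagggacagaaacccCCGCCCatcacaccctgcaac
Efna3, chr3:89322940-89323189, minus strand: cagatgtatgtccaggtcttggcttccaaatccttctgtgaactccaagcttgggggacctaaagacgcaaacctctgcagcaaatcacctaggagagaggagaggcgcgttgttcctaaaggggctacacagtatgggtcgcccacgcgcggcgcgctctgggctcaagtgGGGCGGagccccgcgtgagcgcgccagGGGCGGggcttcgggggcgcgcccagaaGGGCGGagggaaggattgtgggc
Efna4, chr3:89338029-89338278, minus strand: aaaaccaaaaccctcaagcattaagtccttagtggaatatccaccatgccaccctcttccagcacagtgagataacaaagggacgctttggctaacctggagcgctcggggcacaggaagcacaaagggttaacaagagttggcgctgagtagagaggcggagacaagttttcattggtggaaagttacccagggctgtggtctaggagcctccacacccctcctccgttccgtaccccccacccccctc
Unc5c, chr3:141465314-141465563, plus strand: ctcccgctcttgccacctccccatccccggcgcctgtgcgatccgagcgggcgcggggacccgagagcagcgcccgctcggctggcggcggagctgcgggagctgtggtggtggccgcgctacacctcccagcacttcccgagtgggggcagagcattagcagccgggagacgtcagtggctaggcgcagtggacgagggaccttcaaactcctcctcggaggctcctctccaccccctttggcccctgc
Robo4, chr9:37401722-37401971, plus strand: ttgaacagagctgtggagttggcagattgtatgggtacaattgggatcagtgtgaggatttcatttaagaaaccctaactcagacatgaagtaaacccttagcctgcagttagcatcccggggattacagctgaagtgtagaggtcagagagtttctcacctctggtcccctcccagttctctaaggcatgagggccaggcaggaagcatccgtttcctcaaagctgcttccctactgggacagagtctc
Plxnd1, chr6:115995006-115995255, minus strand: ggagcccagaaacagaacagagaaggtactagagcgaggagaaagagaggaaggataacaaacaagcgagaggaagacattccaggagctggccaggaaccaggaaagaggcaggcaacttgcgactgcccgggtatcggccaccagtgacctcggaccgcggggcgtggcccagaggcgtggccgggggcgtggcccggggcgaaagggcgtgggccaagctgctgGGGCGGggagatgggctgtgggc
The Efna3 window held 3 GC boxes, the Efna1 and Plxnd1 windows 1 each, and those of Efna4, Unc5c and Robo4 none. The Robo4 window was the poorest of the 6 in CpG, with 2, and the Unc5c window the richest, with 23. Promoters were found for 63 of the 74 guidance genes, and 44 of them (69.8%) held a GC box, against 57.9% of the promoters of all tested genes and 33% of all 27025 promoters. The share was 17 of 21 for the guidance genes that rose (81%) and 10 of the 15 with an entry that fell (66.7%), beside 61.2% and 55.9% for all genes that rose and fell. The windows of the guidance genes were also richer in G and C, with a median of 64.8%. The median was 59.6% for all tested genes and 52% for all promoters, and its part in the GC box shares was not tested. For the other motifs the share of the 63 windows is set beside that of the promoters of all tested genes and of all promoters. It was 3.17% for the AP-1 motif TGANTCA (4.57% and 6.85%), 39.7% for the dioxin response core GCGTG (44.4% and 28.3%), 6.35% for the E-box CACGTG (8.27% and 6.04%) and 4.76% for TATAAA (6.76% and 13%). A match is only a run of letters on either strand and says nothing about binding.

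Guidance genes moved in both directions. The abundant ones, such as the class 4 semaphorins, B plexins, ephrins and several Eph receptors, were mostly higher with luteolin by modest amounts, and scarcer ones, among them Sema7a, Sema3g, Plxnc1, Plxnd1, Epha3 and Robo4, were lower by several fold. Of the 76 genes 62 had enough reads to test, and 39 passed an adjusted p of 0.05 in edgeR's quasi-likelihood test, 21 higher and 18 lower. That is 62.9% of those tested, beside 58.9% of all 13838 genes tested, of which 28.5% were higher and 30.4% lower. The share called was thus close to the background. Their median log2 fold change was 0.00 (-0.06 without Unc50), beside -0.02 over all genes tested. Libraries of the groups did not overlap for 45 of the 62 (72.6%, background 67.4%), with luteolin above for 24 (background 33.8%) and below for 21 (background 33.7%). By more than 1 log2 unit 12 guidance genes fell (19.4%) and 3 rose (4.84%), shares near those of all genes tested (15.1% and 4.61%).

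The 14 untested genes were Sema4f, Sema5b, Plxnb3, Epha5, Epha6, Epha8, Epha10, Robo3, Dcc, Ntn5, Slitrk2, Slitrk4, Slitrk5 and the name match Unc5cl. None exceeded a mean of 0.185 TPM (transcript level scaled for gene length and to a common library total) or 1.29 CPM in a library. Dcc, the attractive netrin receptor, had between 0 and 0.130 CPM. The tested gene matched by name alone, Unc50, had a log2 fold change of 0.15 (SE 0.0728, adjusted p = 0.115).

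A split of the 61 tested guidance genes at a mean of 10 TPM, chosen after the values were seen, describes the calls by level. The mean over both groups falls for a gene that fell and rises for a gene that rose, so the level is not independent of the direction. At 10 TPM or more 17 of 26 rose (65.4%) and 2 fell (7.69%), with a median log2 fold change of 0.45. All genes of that level rose in 35.1% and fell in 26.3%, with a median of 0.05. Below 10 TPM 4 of 35 guidance genes rose (11.4%) and 16 fell (45.7%), with a median of -0.73, beside 19% and 36.4% and a median of -0.22 for all genes there. The 2 abundant genes that fell were Sema4c and Ephb4, and the 4 scarce genes that rose were Plxna2, Plxna3, Unc5b and Unc5c. Split by the vehicle level alone, 16 of 27 guidance genes at 10 TPM or more rose (59.3%) and 4 fell (14.8%), beside 31.9% and 29.8% of all genes there, and below it 5 of 34 rose (14.7%) and 14 fell (41.2%), beside 23.7% and 31.3%. Epha3 and Draxin reached the read minimum in vehicle libraries only, so they had to differ to be tested. Both are counted among the genes that fell. Sema3g, Sema6b, Sema7a, Plxnc1 and Epha7, which also fell, had under 10 counts in some luteolin libraries. Their luteolin reads alone would not have met the filter, so their vehicle reads helped them to be tested. Unc5c, which rose, had 15, 17 and 10 counts in vehicle 1, 2 and 3, the last just under the minimum once scaled to library size. Its luteolin reads therefore helped it to be tested. The genes that rose did so by 0.35 to 2.67 (median 0.57) and had a median level of 30.0 TPM, while those that fell had a median change of -2.33 and a median level of 2.15 TPM.

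**Figure D1:**
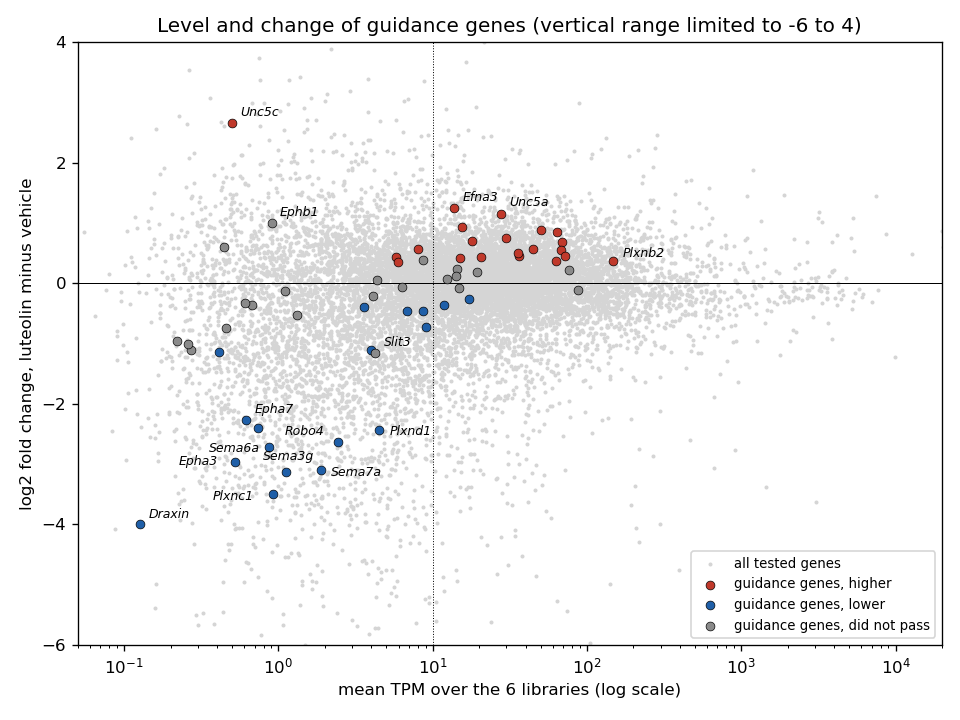
Mean TPM over the 6 libraries (log scale) against the log2 fold change of luteolin minus vehicle for all tested genes (grey dots) and guidance genes (large dots, coloured by call), with a dotted line at 10 TPM. Most guidance genes right of the line lie a little above 0, and the largest decreases lie left of it.

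The most abundant guidance gene was Plxnb2 (146 TPM), followed by Epha2 (87.6), Sema3f (76.5), Epha1 (71.6), Sema4d (68.7), Plxnb1 (67.8), Sema4a (63.7), Efna1 (63.3), Ephb3 (50.6) and Sema4b (44.5), as means over 6 libraries. Plxnb2 had 127 ± 9.62 TPM with vehicle and 165 ± 4.36 TPM with luteolin (SD, n = 3). These 10 genes made up 64.0% of the summed guidance TPM, and 8 of them rose, 0 fell and 2, Epha2 and Sema3f, did not pass. The sum over the 74 genes was 1012 ± 59.0 TPM with vehicle and 1304 ± 10.0 TPM with luteolin (SD, n = 3), and the groups did not overlap. Ephrins went from 152 ± 3.28 to 213 ± 2.22 TPM and membrane semaphorins from 180 ± 9.80 to 257 ± 13.5 TPM (SD, n = 3). The Slit and Robo sum was 15.9 ± 5.84 and 7.87 ± 1.47 TPM, and the sums of the class 3 semaphorins (102 and 113 TPM) and of the RGM proteins with neogenin (41.7 and 42.6 TPM) overlapped between groups. The epithelial marker list also rose with luteolin, in 9 of 12 genes (1, Krt14, fell), with summed CPM of 53467 to 61007 in vehicle libraries and 80705 to 83209 in luteolin libraries and no marker at 0. The sum weighs abundant genes most. Krt14 had the largest change of the list, 12.5-fold lower, from a mean of 5209 CPM with vehicle to 418 CPM with luteolin. The part of the list in the higher guidance genes was not tested.

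**Figure D2:**
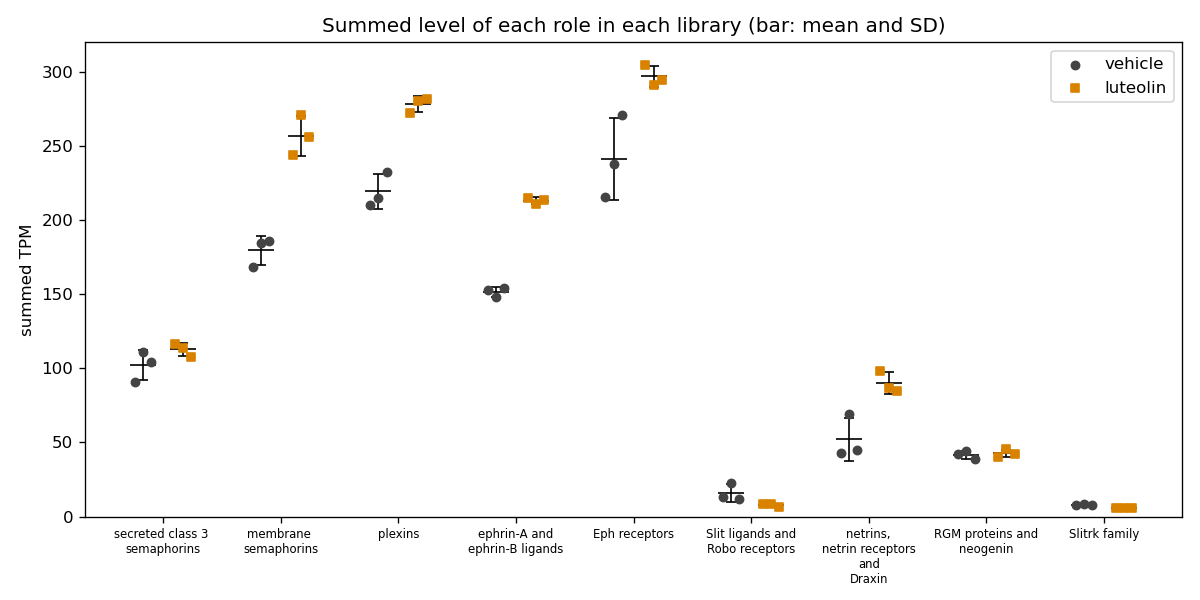
Summed TPM of each role class in each library, with the mean and SD of each group (n = 3). Ephrins, membrane semaphorins, plexins and Eph receptors lie higher in all luteolin libraries, and Slits with Robos and the Slitrk family lie lower.

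The secreted class 3 semaphorins, which repel axons and endothelial cells through neuropilins and A plexins or plexin D1, gave 2 lower genes, 0 higher and 5 that did not pass. The share that fell, 28.6%, was close to the 30.4% of all genes tested. Sema3g (gene ID 218877) stood at 4.85, 7.43 and 4.35 CPM in vehicle 1, 2 and 3 and at 0.774, 0.325 and 0.772 CPM in luteolin 1, 2 and 3. The groups lay far apart, and the log2 fold change was -3.14 (SE 0.375, adjusted p = 0.000459), or 8.79-fold lower. Sema3a (gene ID 20346), the prototype repellent of sensory axons, stood at 14.9, 25.5 and 19.8 CPM with vehicle and at 9.99, 10.9 and 7.01 CPM with luteolin. All luteolin values were below all vehicle values, with vehicle 2 the highest (log2 fold change -1.11, SE 0.234, adjusted p = 0.00544). Sema3f (gene ID 20350), a ligand of neuropilin-2 and the most abundant of the class, had 138, 148 and 169.9 CPM with vehicle and 175, 174 and 183 CPM with luteolin. Its groups did not overlap, yet it missed the threshold (log2 fold change 0.22, adjusted p = 0.0513) and passed without vehicle 3 (0.29, adjusted p = 0.00988) and with DESeq2 (adjusted p = 0.0349). Sema3d had a log2 fold change of 0.38 (adjusted p = 0.0653), which passed without vehicle 2 (0.59, adjusted p = 0.000598), where its highest vehicle value, 40.6 CPM, lay. Sema3b, Sema3c and Sema3e ranged from -0.74 to 0.06 and did not pass.

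Of 11 tested membrane semaphorins 4 rose, 5 fell and 2 did not pass, and the called genes were mostly higher in class 4 and lower in class 6. The shares were 36.4% higher and 45.5% lower, beside 28.5% and 30.4% of all genes tested. In class 4, whose members signal through B plexins, 3 of 5 rose and 1 fell. Sema4a (gene ID 20351), also an immune co-stimulator, stood at 80.7, 96.5 and 91.3 CPM with vehicle and at 152, 169 and 164 CPM with luteolin. The groups were well separated (log2 fold change 0.85, SE 0.081, adjusted p = 0.000189). Sema4d (gene ID 20354), the classical plexin B1 ligand, had 132, 139 and 148 CPM with vehicle and 198, 253 and 221 CPM with luteolin, and rose by 0.68 on the log2 scale (SE 0.0965, adjusted p = 0.000939). Sema4b (gene ID 20352) had 77.1, 82.1 and 87.8 CPM with vehicle and 120.3, 122 and 125 CPM with luteolin, 1.49-fold higher (adjusted p = 0.000322). Every luteolin library of these 3 genes lay above every vehicle library. Sema5a also rose (0.42, adjusted p = 0.0200), a call that ended without luteolin 2 (0.37, adjusted p = 0.0630) and after a correction for gene length (0.21, adjusted p = 0.190). It also ended with limma-trend on log2(FPKM + 1) (adjusted p = 0.0677) and on log2(FPKM + 0.1) (adjusted p = 0.0665).

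Sema7a (gene ID 20361), a GPI-anchored semaphorin that acts through integrins and plexin C1, fell most of the tested membrane semaphorins. The untested Sema4f had 43 counts over the vehicle and 4 over the luteolin libraries. Sema7a had 5.20, 7.84 and 6.49 CPM with vehicle and 0.838, 0.845 and 0.579 CPM with luteolin. No luteolin value came near a vehicle value, and the log2 fold change was -3.10 (SE 0.266, adjusted p = 0.000138). Sema6a (gene ID 20358), a transmembrane ligand of A plexins, went from 5.37, 7.96 and 7.21 CPM to 0.645, 1.36 and 1.09 CPM, 6.58-fold lower (adjusted p = 0.000347). Class 6 held 3 lower genes of 4 tested, with Sema6b 5.27-fold and Sema6d 1.66-fold lower, and Sema6c did not pass (-0.52, adjusted p = 0.0814). Sema4c, at 31.0 to 34.8 CPM with vehicle and 23.3 to 27.9 CPM with luteolin, fell by 0.37 on the log2 scale (adjusted p = 0.0106), against the other called class 4 genes.

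Among the plexins, the semaphorin receptors, 4 of 8 tested rose, 3 fell and Plxna1 did not pass (-0.08, adjusted p = 0.273, or lower at -0.20 with adjusted p = 0.0226 under library sizes only). That is 50% higher and 37.5% lower, beside 28.5% and 30.4% of all genes tested. Plxnb2 (gene ID 140570), a receptor of class 4 semaphorins, had 492, 520.0 and 588 CPM with vehicle and 668, 714 and 691 CPM with luteolin. The groups did not overlap, and the increase was 1.29-fold (log2 fold change 0.37, SE 0.0793, adjusted p = 0.00562). Plxnb1 (gene ID 235611), the Sema4d receptor, had 241, 225 and 268 CPM with vehicle and 347, 342 and 389.6 CPM with luteolin, 1.47-fold higher (adjusted p = 0.00140). Both called B plexins rose, as did 3 of the 5 tested class 4 semaphorins, while Sema4c fell. Plxna3 (gene ID 18846), a receptor for Sema3f with neuropilin-2, had 24.3, 25.6 and 25.7 CPM with vehicle and 36.0, 39.2 and 37.2 CPM with luteolin, and rose by 0.57 on the log2 scale (SE 0.0686, adjusted p = 0.000468). Plxna2 rose by 0.44 and Plxna4, at 2.06 to 6.26 CPM over all libraries, fell by 1.15 on the log2 scale (adjusted p = 0.00738).

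Plxnd1 (gene ID 67784), the endothelial receptor of Sema3e, stood at 30.5, 43.7 and 28.6 CPM with vehicle and at 5.48, 8.51 and 4.89 CPM with luteolin. Vehicle 2 was the highest, the groups were separated, and the log2 fold change was -2.44 (SE 0.248, adjusted p = 0.000242). Plxnc1 (gene ID 54712), the Sema7a receptor found on leukocytes, had 7.88, 10.8 and 5.66 CPM with vehicle and 0.774, 1.10 and 0.257 CPM with luteolin. It was 11.3-fold lower (log2 fold change -3.50, SE 0.45, adjusted p = 0.000620), so Sema7a and Plxnc1, a ligand and its receptor, both fell. The vessel marker list fell in 11 of 12 genes, with summed CPM of 175 to 292 in vehicle libraries and 42.2 to 49.9 in luteolin libraries, and Pecam1 6.28-fold and Egfl7 7.26-fold lower. The macrophage and dendritic cell list fell in 10 of 11 genes, with Mrc1 10.5-fold lower and Itgam 1.45-fold higher, and its summed CPM went from between 551 and 925 to between 236 and 292. No marker of either list was at 0 in any library. The dividing cell list fell in 10 of 10 genes (712 to 1426 against 375 to 552 summed CPM) and the conjunctiva list in 3 of 4 tested (4187 to 4491 against 1790 to 2772). The part of these cells in the decrease of Plxnd1, Plxnc1, Sema3g, Sema6a and Sema7a was not tested.

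Ephrins, the membrane-anchored ligands of the Eph receptors, rose without exception among the called genes: 5 of 8 were higher, 0 lower and 3 did not pass, counts that were the same under each of the other scalings run. The share that rose was 62.5%, beside 28.5% of all genes tested. Efna3 (gene ID 13638) had 10.9, 11.5 and 11.6 CPM with vehicle and 29.1, 24.2 and 27.4 CPM with luteolin. Its groups lay far apart (log2 fold change 1.25, SE 0.0978, adjusted p = 0.000106). Its neighbour Efna4 (gene ID 13639) had 12.6, 10.8 and 12.4 CPM with vehicle and 20.2, 18.6 and 19.6 CPM with luteolin, and was 1.63-fold higher (adjusted p = 0.000926). Efna1 (gene ID 13636), the most abundant ephrin per length, had 43.9, 40.3 and 48.3 CPM with vehicle and 56.5, 56.4 and 58.5 CPM with luteolin, 1.29-fold higher (adjusted p = 0.00497). The 3 adjacent genes, whose promoters are printed above, all rose. Efna3, with 3 GC boxes, rose by 1.25, Efna4, with none, by 0.70 and Efna1, with 1, by 0.37 on the log2 scale. From 3 genes no relation to the number of GC boxes can be read. Efnb1 (gene ID 13641) had 63.4, 62.6 and 64.4 CPM with vehicle and 83.7, 84.4 and 91.7 CPM with luteolin (log2 fold change 0.45, SE 0.0584, adjusted p = 0.000651). Efnb2 (gene ID 13642), a marker of arterial endothelium that is also made by epithelium, had 85.4, 99.2 and 87.8 CPM with vehicle and 127, 132 and 125 CPM with luteolin (log2 fold change 0.50, adjusted p = 0.000959). Efnb1 and Efnb2 rose while the vessel markers fell, and their relation to the vessel content was not tested. Efna5 (0.24, adjusted p = 0.0534), Efna2 (-0.36) and Efnb3 (-0.33) did not pass.

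Of 10 tested Eph receptors, tyrosine kinases bound by ephrins, 4 rose, 3 fell and 3 did not pass. These are 40% and 30%, beside 28.5% and 30.4% of all genes tested. Ephb3 (gene ID 13845) stood at 87.4, 93.1 and 99.9 CPM with vehicle and at 160.2, 177 and 178 CPM with luteolin. All luteolin values lay above all vehicle values (log2 fold change 0.88, SE 0.073, adjusted p = 0.000126). Ephb6 (gene ID 13848), which lacks kinase activity, had 23.8, 24.2 and 27.2 CPM with vehicle and 47.1, 44.6 and 51.2 CPM with luteolin, 1.90-fold higher (adjusted p = 0.000164). Epha1 (gene ID 13835), an epithelial receptor, had 118, 118 and 129 CPM with vehicle and 169.7, 172 and 159 CPM with luteolin (log2 fold change 0.46, adjusted p = 0.000816), and Epha4 rose by 0.44. Receptors of both the A and the B family thus rose, each with groups that did not overlap. Epha2 (gene ID 13836), the most abundant Eph receptor and one that binds ephrin-A1, had 154, 196 and 268 CPM with vehicle and 204, 178 and 189 CPM with luteolin. The vehicle libraries spanned the luteolin ones, and the log2 fold change of -0.11 (SE 0.183, adjusted p = 0.615) did not pass, with a sign that turned without vehicle 3 (0.11).

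Epha3 (gene ID 13837), a receptor of mesenchymal cells, went from 3.74, 4.04 and 2.50 CPM to 0.258, 0.585 and 0.450 CPM. The groups were separated at these low levels, and the log2 fold change was -2.97 (SE 0.361, adjusted p = 0.000486). Epha3 reached the read minimum in vehicle libraries only, so it had to differ to be tested, and its p-value is no independent support. Epha7, at 3.45 to 4.56 CPM with vehicle and 0.387 to 1.49 CPM with luteolin, was 4.80-fold lower (adjusted p = 0.00383), or 8.17-fold without luteolin 2, which held the highest luteolin value. Ephb4, the venous endothelial receptor of ephrin-B2, had 49.7, 56.7 and 48.3 CPM with vehicle and 45.3, 40.9 and 43.0 CPM with luteolin. This decrease of 0.26 on the log2 scale (adjusted p = 0.0269) lost its call without luteolin 2 (adjusted p = 0.0817) or luteolin 3 (adjusted p = 0.0668). The call also ended with the replicate number as a block (adjusted p = 0.0508). It ended too with the skeletal muscle list (adjusted p = 0.0704) or the keratocyte list (adjusted p = 0.111) as a covariate. Ephb1, a scarce receptor of B ephrins, had 0.993, 3.51 and 0.834 CPM with vehicle and 5.29, 3.25 and 2.19 CPM with luteolin, which overlapped (log2 fold change 1.00, SE 0.585, adjusted p = 0.177), and passed without vehicle 2 (1.96, adjusted p = 0.00742). Vehicle 2 was also the library with the highest mean level of the keratocyte list, 8.58 as log2 CPM, against 7.58 and 6.87 in the other vehicle libraries and 6.11 to 7.34 in the luteolin libraries. It was highest as well for the vessel (292 summed CPM), macrophage (925) and skeletal muscle lists. The muscle list was uneven, at 138, 228 and 15.3 summed CPM over the vehicle libraries in order, against 19.1, 18.5 and 99.7 for luteolin, and their part in these genes was not tested. With the mean of the keratocyte list as a covariate, added after seeing the data, Ephb1 passed as well (2.10, adjusted p = 0.00562).

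No Slit or Robo gene rose: 2 of 6 tested fell (1, Robo4, without vehicle 2) and 4 did not pass. The share that fell, 33.3%, was close to the 30.4% of all genes tested, of which 28.5% rose. Robo4 (gene ID 74144), the endothelial Robo, stood at 7.88, 12.3 and 8.40 CPM with vehicle and at 0.967, 2.01 and 1.61 CPM with luteolin. The groups were far apart, and the log2 fold change was -2.63 (SE 0.305, adjusted p = 0.000411). Robo4 was 6.20-fold lower, and its relation to the vessel content was not tested. The listed vessel markers were lower by 1.68-fold (Kdr, which did not pass) to 9.05-fold (Cdh5). Robo1 (gene ID 19876), the broadly expressed Slit receptor, had 18.2, 23.1 and 21.0 CPM with vehicle and 16.4, 14.1 and 17.1 CPM with luteolin. The decrease of 0.39 on the log2 scale (adjusted p = 0.0272) lost its call without vehicle 2 (-0.31, adjusted p = 0.0574), vehicle 3 (-0.40, adjusted p = 0.0515) or luteolin 2 (-0.32, adjusted p = 0.0747). The call also ended with the skeletal muscle list (adjusted p = 0.0637) or the keratocyte list (adjusted p = 0.0612) as a covariate. Slit3 (gene ID 20564), the most abundant Slit, had 13.7, 32.3 and 10.4 CPM with vehicle and 9.09, 11.3 and 4.89 CPM with luteolin. The groups overlapped and vehicle 2 stood high (log2 fold change -1.16, SE 0.468, adjusted p = 0.0663), and the call appeared without vehicle 3 (-1.46, adjusted p = 0.0266) and with DESeq2 (adjusted p = 0.0146). Slit1 (-0.96, adjusted p = 0.104), Slit2 (-0.13, adjusted p = 0.840) and Robo2 (-1.11, adjusted p = 0.125, passing without luteolin 2 at -1.89) did not pass.

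The Unc5 receptors, which turn netrin into a repellent and act as dependence receptors, rose in all 3 tested members. Of all genes tested 28.5% rose. Unc5a (gene ID 107448) had 36.4, 47.5 and 42.2 CPM with vehicle and 89.9, 94.2 and 96.0 CPM with luteolin. The lowest luteolin value was well above the highest vehicle value (log2 fold change 1.15, SE 0.0976, adjusted p = 0.000134). Unc5c (gene ID 22253) had 0.876, 0.995 and 0.596 CPM with vehicle and 5.93, 4.74 and 5.15 CPM with luteolin. It rose 6.36-fold, the largest increase of a guidance gene (log2 fold change 2.67, SE 0.252, adjusted p = 0.000187), but to a level of only 0.860 ± 0.108 TPM (SD, n = 3), beside 38.2 ± 0.865 TPM for Unc5a. The vehicle reads of Unc5c alone would not have met the filter, so its luteolin reads helped it to be tested. Unc5b (gene ID 107449), the endothelial member, had 19.0, 21.3 and 19.5 CPM with vehicle and 27.0, 25.3 and 23.7 CPM with luteolin, 1.27-fold higher (adjusted p = 0.0114). The vessel markers fell, and the relation of Unc5b to the vessel content was not tested. The Unc5b call ended with library sizes in place of TMM factors (0.23, adjusted p = 0.0533). It also ended with limma-trend on log2(FPKM + 1) (0.18, adjusted p = 0.0996) and on log2(FPKM + 0.1) (0.22, adjusted p = 0.109).

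The netrins themselves changed less clearly. Ntn4 (gene ID 57764), a basement membrane netrin and the most abundant of the group, had 23.3, 46.4 and 26.3 CPM with vehicle and 64.0, 50.2 and 47.5 CPM with luteolin. The groups only just failed to touch, with vehicle 2 beside luteolin 3 (log2 fold change 0.75, SE 0.257, adjusted p = 0.0374). The call ended without any 1 library other than vehicle 2 (0.56 to 0.84, adjusted p = 0.0525 to 0.121) and held without vehicle 2 (1.12, adjusted p = 0.000566). It also ended with upper quartile factors, library sizes only, robust dispersion, both limma-trend fits and the skeletal muscle covariate (adjusted p = 0.0505 to 0.0644). Ntn1, the founding netrin, had 18.6, 38.3 and 15.3 CPM with vehicle and 26.8, 20.9 and 21.6 CPM with luteolin, which overlapped (-0.06, adjusted p = 0.887). Vehicle 2 was again the highest library, and without it Ntn1 was higher with luteolin (0.45, adjusted p = 0.0294). Ntn3 did not pass (-1.02, adjusted p = 0.168). Draxin (gene ID 70433), a secreted repellent that binds Dcc and netrin-1, had 0.584, 0.644 and 1.19 CPM with vehicle and 0, 0.130 and 0 CPM with luteolin. That is 41 against 2 counts, a ratio of 18.7 with an exact 95% interval of 4.85 to 159 that covers counting error only (adjusted p = 0.00564). Draxin reached the read minimum in vehicle libraries only, so it had to differ to be tested, and these values are no independent support. The ratio was 12.4 without luteolin 1 or luteolin 3, and without luteolin 2, where both counts lay, Draxin was at least 8.32-fold lower, taking 3 counts over the remaining luteolin libraries as the floor.

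**Figure D3:**
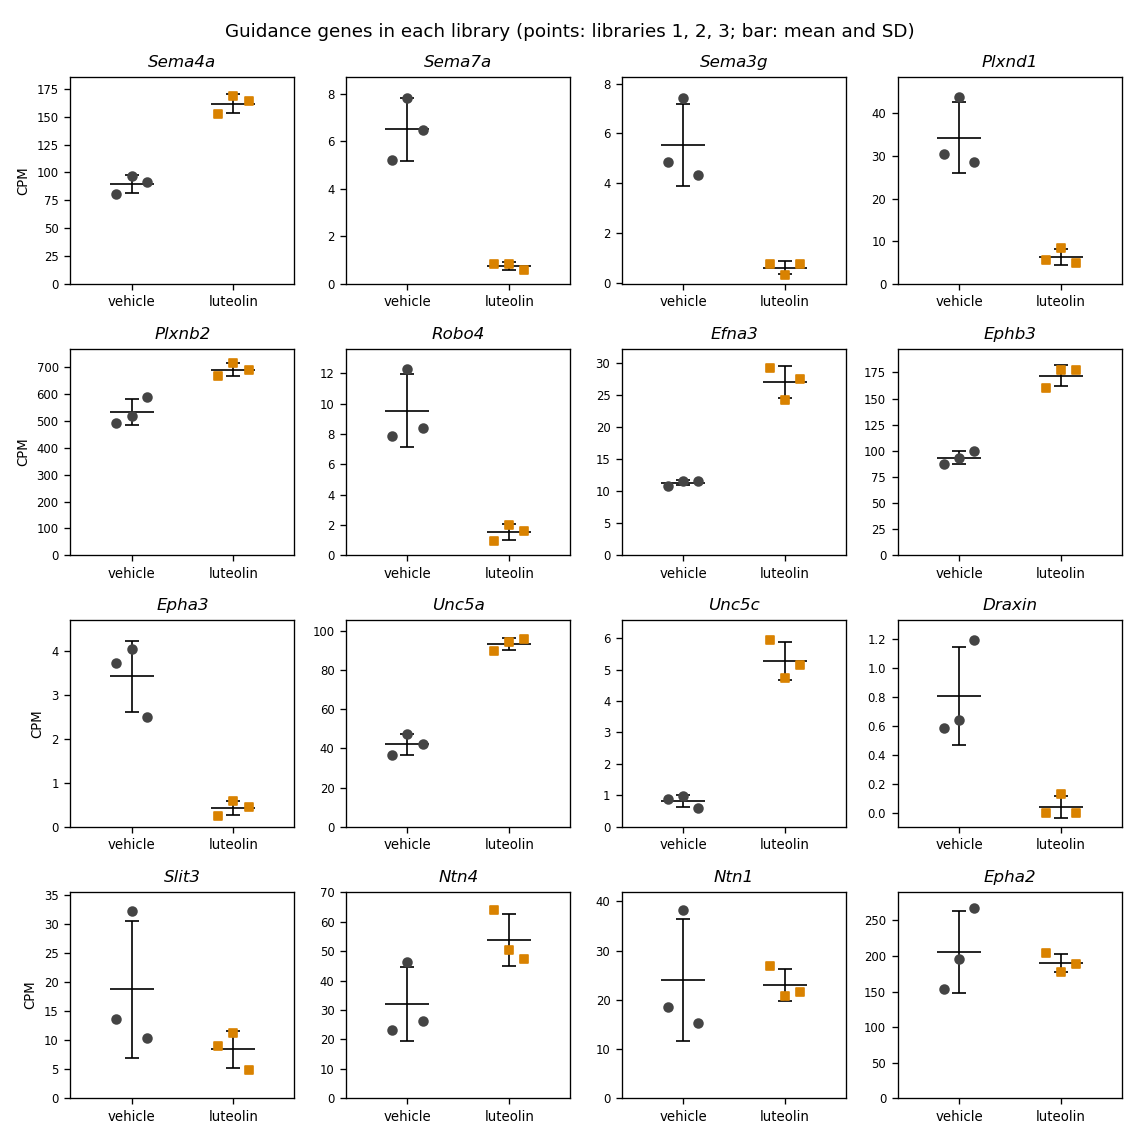
CPM of 16 guidance genes in each library (points, in the order 1, 2, 3), with the mean and SD of each group (n = 3), each panel on its own linear axis. Sema4a, Efna3, Ephb3, Unc5a and Unc5c are higher and Sema7a, Plxnd1, Robo4 and Epha3 lower in all luteolin libraries, while vehicle 2 stands high for Slit3, Ntn4 and Ntn1.

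In the repulsive guidance molecule family, Rgma (gene ID 244058), a GPI-anchored ligand of neogenin, had 23.1, 20.7 and 24.01 CPM with vehicle and 14.4, 18.9 and 15.7 CPM with luteolin. The groups did not overlap, and Rgma fell by 0.47 on the log2 scale (SE 0.121, adjusted p = 0.0133). Its receptor Neo1 (gene ID 18007), at 63.3 to 67.3 and 69.6 to 70.5 CPM, did not pass (0.11, adjusted p = 0.104) although its groups were separate. Rgmb, the most abundant of the 3, did not pass (0.19, adjusted p = 0.209), and passed without vehicle 2 (0.31, adjusted p = 0.0290). Slitrk6 (gene ID 239250), a transmembrane protein that promotes sensory innervation of the inner ear, was the only Slitrk with enough reads. It had 20.7, 22.3 and 22.2 CPM with vehicle and 15.5, 14.9 and 16.7 CPM with luteolin, 1.38-fold lower (adjusted p = 0.00291).

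**Figure D4:**
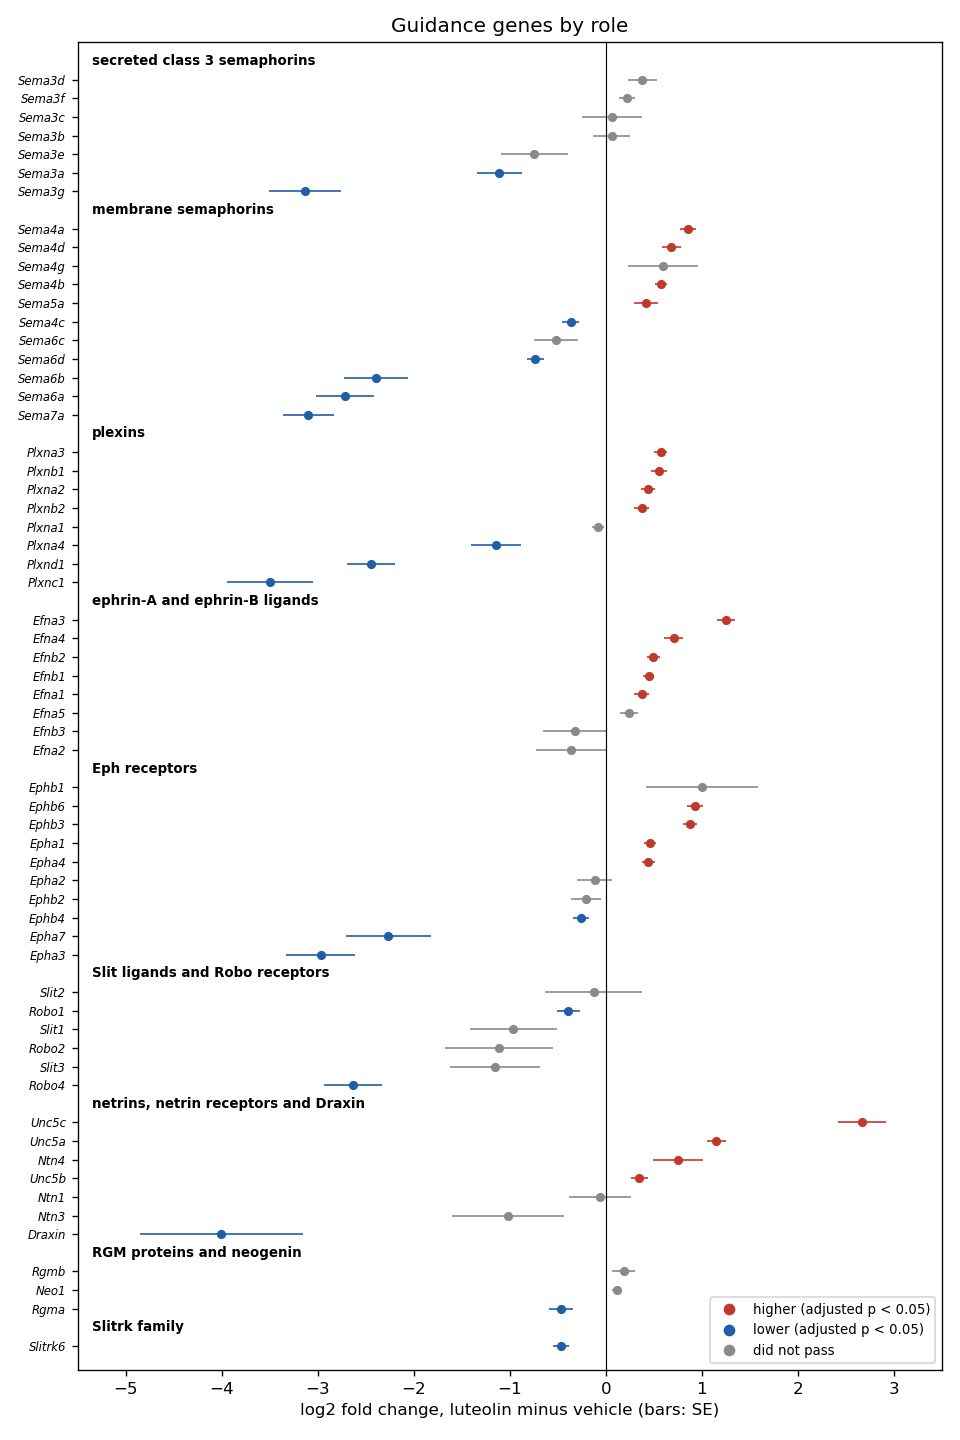
Log2 fold change of luteolin minus vehicle with its SE for each tested guidance gene, grouped by role and coloured by the edgeR call. All called ephrins and Unc5 receptors lie right of 0, all called Slit and Robo genes left of it, and semaphorins and plexins on both sides. Of all genes tested 28.5% were called higher and 30.4% lower.

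Ligands and receptors did not move as blocks. Of 35 tested ligands 10 rose (28.6%) and 9 fell (25.7%), and of 25 tested receptors 11 rose (44%) and 8 fell (32%). Of all genes tested 28.5% rose and 30.4% fell. Several known pairs moved the same way, such as Sema4d with Plxnb1 upward and Sema7a with Plxnc1 downward, and others did not, such as Efnb2, which rose, and Ephb4, which fell. These pairs were picked after their values were seen.

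The other genes of the pathway, from a list of 64 co-receptors and effectors, gave 23 higher, 21 lower and 13 not passing of 57 tested. These shares were 40.4% higher and 36.8% lower, beside 28.5% and 30.4% of all genes tested. The median log2 fold change of the list was -0.08. Among semaphorin co-receptors and effectors 7 of 19 rose and 8 fell. Nrp2, the neuropilin that pairs with Sema3f, was 6.71-fold lower (30.8, 42.9 and 32.2 against 5.996, 6.24 and 3.54 CPM), and Nrp1, named after its values were seen, 3.03-fold. Both neuropilins fell, as the vessel markers did, and their relation to the vessel content was not tested. The class 3 ligand Sema3f did not pass. Of 13 Eph and ephrin effectors 6 rose and 4 fell, with the adaptor Nck2 1.86-fold and the Rap GTPase-activating protein Sipa1l1 1.63-fold higher. Of 15 genes around Slit, netrin and RGM signalling 6 rose and 8 fell, with Flrt3, a Robo1 co-receptor, 4.70-fold and the chemokine gene Cxcl12 5.37-fold lower. The lists of Schwann cells and myelin gave 3 higher and 5 lower of 11 tested (2 or 3 lower without any 1 library other than vehicle 3). Their median log2 fold change was -0.72. The myelin gene Mbp was 2.89-fold and the neuregulin receptor gene Erbb3 1.68-fold higher. Summed CPM, which weighs abundant genes most, was 356 to 394 with vehicle and 607 to 624 with luteolin. Mean log2 CPM was 2.67 to 3.35 with vehicle and 2.63 to 2.65 with luteolin. Their part in any guidance gene was not tested.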

How the data were processed

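RNA was sequenced from whole corneas, 3 vehicle and 3 luteolin libraries grouped by title. Bowtie2 2.2.5, RSEM 1.2.12 and build mm9 are listed in the submitters' processing notes. No source used here gives the annotation or any use of strand, and overlapping and antisense genes may share reads. The authors deposited expected counts, which per the file headers are read counts and were not whole in 10.3% to 10.8% of values per library (more than 0.001 from a whole number). The deposited TPM values and the deposited FPKM values are scaled by gene length, per the file headers. A deposited signal column per library, the counts divided by 1 factor, entered no test. A further 8 columns of group averages were not used.

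Counts were rounded and tested with edgeR 4.0.16 (R 4.3.3): filterByExpr (minimum count 10, minimum total 15) kept 13838 of 17794 genes, with TMM factors, the quasi-likelihood test without a replicate block, and Benjamini-Hochberg adjustment over all tested genes at 0.05. The common biological coefficient of variation was 13.8%. Log2 fold changes are coded as luteolin minus vehicle, and an SE is that change over the square root of F. Members and lists were chosen with earlier results of these data known. Named were, per role, the 4 smallest p and the highest mean TPM, per pathway group the 2 smallest p, and per marker list the smallest p and the highest mean CPM. Other genes named were chosen after their values were seen. Part of the pathway list is not reported here. Counts of guidance genes had no decimals except Epha10 and Ntn5. Alternatives were DESeq2 1.42.0, other factors, filters, robust dispersion, a replicate block, limma-trend (limma 3.58.1) on log2(FPKM + 1) and log2(FPKM + 0.1), a length correction, 2 covariates and leaving out each library. The code was tested on simulated data. Promoters came from a RefSeq table (GRCm38.p6). No pair of libraries within a group agreed to within counting noise (chi-square over its degrees of freedom, 6.30 to 30.3).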

Additional observations from a re-analysis of the deposited data

How the results depend on the processing

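Under 19 alternatives 34 of the 39 called guidance genes (18 higher, 16 lower) kept call and direction wherever they were tested, and Ntn4, Unc5b, Sema5a, Ephb4 and Robo1 lost the call in at least 1. Of 1174 gene results 28 lost a call, 28 gained one and 0 called values changed sign. The counts stayed within 1.5 times, higher 18 to 25 and lower 16 to 21. Only the median log2 fold change of the guidance genes, 0.00, moved by more than its spread: to -0.10 with upper quartile factors, -0.11 with library sizes only, -0.12 with no filter, -0.10 with limma-trend on log2(FPKM + 0.1), -0.10 after the length correction (guidance genes had a median implied length of 4632 bases, all tested genes 2642), 0.092 with the skeletal muscle list and 0.16 with the keratocyte list as a covariate, and between -0.10 and 0.15 when each library was left out. The cause was not tested. Library sizes only moved the median of all genes to -0.13 and the lower share of calls from 51.6% to 63.6% (guidance genes 46.2% to 52.5%), upper quartile factors to 61.9% and limma-trend on log2(FPKM + 1) to 65.1%. Over all tested genes the replicate numbers showed no pairing of the samples (correlations of deviations -0.15, 0.03 and 0.01). The keratocyte list had the same library order in both groups (mean log2 CPM 7.58, 8.58 and 6.87 against 7.09, 7.34 and 6.11). The dividing cell list did not (6.81, 5.81 and 6.65 against 4.77, 5.20 and 5.37). Whether the numbers pair the samples is therefore not known. With the replicate block 23 guidance genes were higher and 19 lower, with a median of 0.04, and lower Slit and Robo genes went from 2 to 4. Higher genes among netrins and their receptors went from 4 to 2 with library sizes only. Limma-trend on log2(FPKM + 1) shrank the changes of scarce genes by construction, as for Plxnc1 (-0.99).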
